A study of Mus musculus with 3 samples.

Results

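Expression of 9 genes of the epithelial to mesenchymal transition was described over single mouse PC cells: the transcription factors Snai1, Snai2, Twist1, Zeb1 and Zeb2, the cadherins Cdh1 and Cdh2, the epithelial surface protein Epcam and the intermediate filament gene Vim. The 9 genes were taken by symbol from 32287 features, and their levels played no part in the choice of cells. Levels were read in the 14925 of 18116 cell barcodes with at least 500 genes, at least 1000 UMIs (unique molecules counted) and at most 20% mitochondrial UMIs. PC cells came from esophageal organoids of Trp53 floxed mice, in which Trp53 was deleted with the adenovirus Ad-Cre-EGFP and Cdkn2a was then knocked out by CRISPR/Cas9. The labels give their tissue as esophageal cancer. All the cells expressed Cas9 constitutively, had received a library of genetic barcodes by transfection and were sorted as live RFP-positive cells before droplet sequencing by the 10x Genomics 3' v2 chemistry. They had been grown in DMEM with 10% FBS, at first with Y-27632. The number of mice behind the culture is not given in the sources used here, and the PCN organoids with Notch1 knockout were not analysed here. The data form 1 sample, so no group of samples could be compared and no test was possible.

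Epithelial cells hold together through E-cadherin, the product of Cdh1, at adherens junctions, and through further adhesion proteins such as Epcam. In an epithelial to mesenchymal transition, factors of the Snail, Zeb and Twist families bind E-box motifs and can repress epithelial genes, while vimentin and often N-cadherin, the product of Cdh2, come on. Squamous epithelia such as that of the esophagus are renewed by basal cells, and the transition is much studied there as a route by which carcinoma cells gain motility.

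Promoter windows of 5 of the 9 genes, the 250 bases before the RefSeq transcription start on GRCm38.p6, were searched for the E-box CAGGTG and its reverse complement CACCTG, the form that Snail and Zeb proteins are known to bind. Windows of Epcam, Snai1 and Vim are printed because Epcam and Vim mark the opposing cell classes described here, and Snai1 had the largest ratio between those classes among the genes that did not define them. They read 5′ to 3′ on the plus strand, with the matched E-boxes in capitals. Epcam, chr17:87635729-87635978, holds CACCTG starting at position -187 and CAGGTG at -19 from the transcription start; Snai1, chr2:167537945-167538194, holds CACCTG at -126; Vim, chr2:13574061-13574310, holds neither.
Epcam: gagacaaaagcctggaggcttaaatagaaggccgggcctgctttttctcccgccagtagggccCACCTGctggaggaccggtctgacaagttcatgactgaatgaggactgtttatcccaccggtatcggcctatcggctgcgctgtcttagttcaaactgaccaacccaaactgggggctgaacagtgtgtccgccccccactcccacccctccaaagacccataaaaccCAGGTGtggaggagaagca
Snai1: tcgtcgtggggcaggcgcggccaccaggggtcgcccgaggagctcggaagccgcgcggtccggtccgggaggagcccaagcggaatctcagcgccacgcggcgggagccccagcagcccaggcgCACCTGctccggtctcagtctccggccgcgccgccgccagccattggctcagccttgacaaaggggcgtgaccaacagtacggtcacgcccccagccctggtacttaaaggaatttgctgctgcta
Vim: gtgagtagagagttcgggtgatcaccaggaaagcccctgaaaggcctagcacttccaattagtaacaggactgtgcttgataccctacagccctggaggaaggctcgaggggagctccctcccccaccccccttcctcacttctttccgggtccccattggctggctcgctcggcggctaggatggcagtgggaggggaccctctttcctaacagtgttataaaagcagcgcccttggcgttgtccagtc
Twist1 and the 4 windows of Zeb2 also held no match. Of 32851 such windows over 27025 genes, 17.2% held at least 1 match and 2.06% held at least 2. A match describes the letters only. Cdh1, Cdh2, Snai2 and Zeb1 are not shown.

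The genes lie on several chromosomes of GRCm38 (GENCODE M21). Snai1 spans 167538195 to 167542814, Zeb2 spans 44983632 to 45117395 on the minus strand and Vim spans 13573927 to 13582826, all on chromosome 2. Snai2 lies on chromosome 16 from 14705852 to 14709385 and Twist1 on chromosome 12 from 33957671 to 33959829. Zeb1 lies on chromosome 18 from 5591860 to 5775467, and Cdh2 on the minus strand of the same chromosome from 16588877 to 16809246. Cdh1 lies on chromosome 8 from 106603351 to 106670246 and Epcam on chromosome 17 from 87635979 to 87651129. Zeb1 and Zeb2 each have overlapping genes on the opposite strand in the matrix, Gm10125 with 64 UMIs and Zeb2os with 12 UMIs in kept cells. Whether the counting used strand is not given in the sources used here.

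Over all kept cells the adhesion genes were widely detected, Vim was detected in 13.1% of cells, Snai2 in 20.4% and Twist1 in 0.603%. Levels are UMIs of a gene per 1000000 UMIs (CPM), summed over cells, with exact 95% Poisson intervals, which cover counting error only. The 3' UMI counts are not scaled by transcript length, so a gene's level is compared between cells, and values of different genes stand side by side without a comparison of their levels. Kept cells held 45443280 UMIs in all, with a median of 2955 per cell and a range of 1000 to 23453. Epcam was at 1086 CPM (1076 to 1095), with a UMI in 79.1% of cells. Cdh1 was at 271 CPM (266 to 276), with a UMI in 49.8%. Both adhesion genes were therefore seen in a large share of cells at this depth. Vim was at 157 CPM (154 to 161), from 13.1% of cells, and 1 cell held as many as 22 Vim UMIs. Its variance over cells thinned to 1500 UMIs was 2.63 times its mean, against 1.64 for Epcam and 1.12 for Cdh1.

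Of the transcription factors, Snai2 was at 81.8 CPM (79.2 to 84.4) in 20.4% of cells. Zeb2 was at 20.4 CPM (19.1 to 21.7) in 5.41% of cells, and Zeb1 at 15.7 CPM (14.6 to 16.9) in 4.16%. Snai1 gave 196 UMIs, or 4.31 CPM (3.73 to 4.96), in 1.22% of cells. Twist1 gave 91 UMIs, or 2.0025 CPM (1.61 to 2.46), in 0.603%. Cdh2, the cadherin that often replaces Cdh1 in the transition, gave 2 UMIs in the whole matrix of kept cells, or 0.0440 CPM, and no UMI in the 13281 cells that could be thinned to 1500 UMIs, which allows a share of up to 0.0226% of cells with a UMI at that depth. Of the genes of an adhesion switch, Cdh1 and Epcam could therefore be compared between cells, with no measurable Cdh2 side. Whether any cell had lost Cdh1 or Epcam was not tested.

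To compare co-detection at 1 depth, each cell was thinned at random to 1500 UMIs. This left out 1644 shallower cells, 11.02% of those kept. A cell was put in 1 of 4 classes by whether it then held a UMI of Epcam or Cdh1 (an adhesion UMI) and a UMI of Vim. Epcam, Cdh1 and Vim define the classes, so their levels by class are a description only.

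Adhesion genes and Vim were rarely found in the same cell. Adhesion UMIs without Vim were held by 9871 of the 13281 cells (74.3%, exact binomial 95% interval 73.6 to 75.1), and Vim without an adhesion UMI by 1338 (10.1%, 9.57 to 10.6). Only 172 cells (1.295%, 1.11 to 1.502) held both, and 1900 (14.3%, 13.7 to 14.9) held neither. These shares depend on the depth and the class rule: neither came to 26.2% of cells thinned to 1000 UMIs and 5.29% of cells thinned to 2500, and both to 0.590% and 2.47%, or to 0.129% when each side needed 2 UMIs. Put per gene, an adhesion UMI was seen in 11.4% (9.83 to 13.1) of the 1510 Vim-positive cells and in 83.9% (83.2 to 84.5) of the 11771 Vim-negative cells. The intervals of these shares lie far apart. Epcam and Cdh1 went together instead: a Cdh1 UMI was found in 37.9% (36.9 to 38.9) of Epcam-positive and in 19.7% (18.5 to 20.9) of Epcam-negative cells.

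The overlap narrowed as either count grew. Among cells with exactly 1 Vim UMI, 126 of 661 (19.1%, 16.1 to 22.3) held an adhesion UMI. This share was 7.82% (5.41 to 10.9) of 409 cells with 2 Vim UMIs and 3.18% (1.75 to 5.28) of 440 cells with 3 or more. In the other direction, a Vim UMI was held by 3.46% (2.79 to 4.24) of the 2598 cells with exactly 1 adhesion UMI and by 0.617% (0.360 to 0.986) of the 2756 cells with 4 or more. Of those 2756 cells, 1 held more than 1 Vim UMI. The grid of cell counts by adhesion and Vim UMIs shows 2 arms along its axes and few cells between them.

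**Figure D1:**
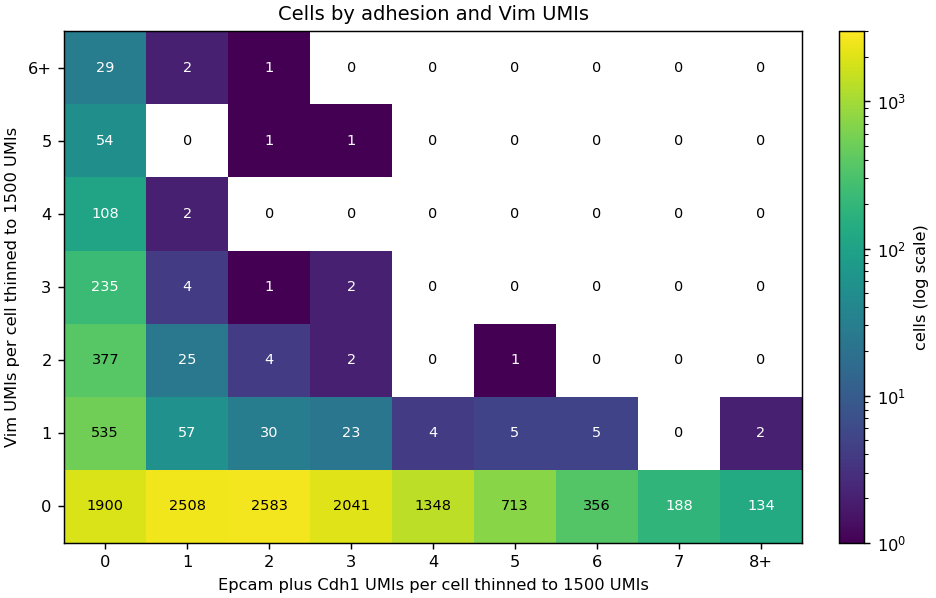
Number of thinned cells (1500 UMIs each) by their Epcam plus Cdh1 UMIs (x axis, UMIs per cell) and their Vim UMIs (y axis, UMIs per cell), with the cell count written in each box and coloured on a log scale. Most cells lie in the bottom row (no Vim) or the left column (no adhesion UMI), and most of the 172 cells with both lie in the corner at 1 to 3 UMIs of each.

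The cells with both stood apart in depth and in doublet score, a number from Scrublet that is higher for cells resembling 2 merged transcriptomes. Their median total was 3666 UMIs, against 3072 in adhesion only, 3323 in Vim only and 3149.5 in neither. Their median score was 0.118, against 0.0778, 0.0270 and 0.0647, and 41.9% of them were among the 10% of kept cells with the highest scores, against 10.8% of all thinned cells. Over 4 sets of nearly equal cell number ranked by full depth (1500 to 2426, 2427 to 3120, 3121 to 3889 and 3890 to 23453 UMIs), both were held by 0.752%, 0.934%, 1.15% and 2.35% of cells, from the shallowest to the deepest, although every cell was thinned to the same total. The share of Vim-positive cells with an adhesion UMI in these sets was 11.6% (7.63 to 16.6), 8.16% (5.61 to 11.4), 7.79% (5.57 to 10.5) and 18.3% (14.8 to 22.3). The interval of the deepest set overlapped that of the shallowest and lay above those of the sets between. Intervals of the other 3 sets overlapped each other. Without the 10% of cells with the highest scores the share with both was 0.912% and the share of Vim-positive cells with an adhesion UMI 7.96%. The part of doublets in these cells was not tested. At full depth 400 of the 14925 cells (2.68%, 2.43 to 2.95) held both, and 52 (0.348%, 0.260 to 0.457) held at least 3 UMIs of each side.

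Snai1, Zeb1 and Zeb2, which had no part in making the classes, were higher in Vim only than in adhesion only cells, and Snai2 and Twist1 were not. A gene was counted as higher when its CPM was at least 10 in 1 class and at least 2 times that of the other, and this is a rule of size, not a test. Of the 6 genes outside the class definition, 4 reached 10 CPM in either class. Of these, 3 were higher in Vim only cells and 0 in adhesion only cells. Of these 2 classes, Snai1, Zeb1 and Zeb2 reached 10 CPM in Vim only cells alone, so the rule could count them in no other direction. Over all 9135 genes that reached 10 CPM, 10.8% were higher in Vim only cells and 10.8% in adhesion only cells.

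Snai1, the Snail family factor first described as a repressor of Cdh1, was at 28.0 CPM (23.4 to 33.3) in Vim only cells, 0.691 (0.433 to 1.05) in adhesion only, 14.0 (6.38 to 26.5) in both and 5.53 (3.85 to 7.69) in neither. The Vim only level was 40.6-fold (25.7 to 67.1) that of adhesion only, from 128 against 22 UMIs. The order of the 4 classes ran from Vim only through both and neither to adhesion only, and the intervals of both overlapped those of Vim only and of neither. Zeb1, a zinc finger and homeodomain repressor, was at 88.7 CPM (80.3 to 97.8) in Vim only, 31.0 (18.9 to 47.9) in both, 21.6 (18.2 to 25.6) in neither and 4.05 (3.38 to 4.81) in adhesion only. Its ratio of Vim only to adhesion only was 21.9 (17.9 to 26.9). Zeb1 thus had the same order of classes, with both and neither overlapping. Zeb2, its close relative, was at 88.5 CPM (80.1 to 97.6), 46.5 (31.4 to 66.4), 28.3 (24.3 to 32.7) and 8.76 (7.76 to 9.85) in the same order of classes. The ratio for Zeb2 was 10.1 (8.65 to 11.8), and its intervals in both and neither overlapped.

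Snai2, which encodes Slug and is expressed in basal cells of many epithelia, went the other way. It was at 85.9 CPM (82.7 to 89.2) in adhesion only, 85.4 (78.4 to 92.9) in neither, 68.2 (49.6 to 91.6) in both and 46.9 (40.8 to 53.6) in Vim only cells. The adhesion only level was 1.83-fold (1.59 to 2.12) that of Vim only, short of the factor of 2, with intervals that did not overlap, and the first 3 classes in this order did not differ beyond counting error. Twist1, a basic helix-loop-helix factor, was at 2.10 CPM (1.63 to 2.67) in adhesion only and 1.75 (0.757 to 3.45) in Vim only cells, from 67 and 8 UMIs. These 2 levels overlapped, Twist1 was under 10 CPM in every class, and no Twist1 UMI was found in the cells with both. The 2 Cdh2 UMIs were both in Vim only cells, under the floor of 3 UMIs, and no ratio is given.

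**Figure D2:**
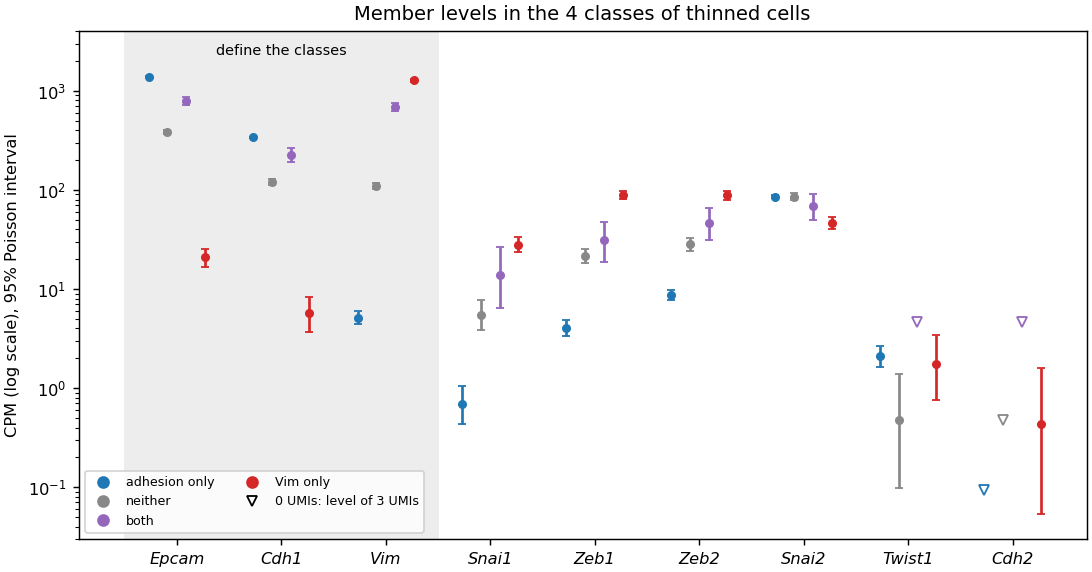
CPM (y axis, log scale) of the 9 genes in the 4 classes of thinned cells, with exact 95% Poisson intervals as bars; open triangles mark the level that 3 UMIs would give where a class has 0 UMIs, and the grey area marks the 3 genes that define the classes. Snai1, Zeb1 and Zeb2 climb from adhesion only to Vim only cells, Snai2 lies highest in adhesion only and neither, and Twist1 and Cdh2 stay under 3 CPM in every class with a UMI.

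Within the Vim only class the factors did not move in steps with the Vim count. In cells with 1, 2 and 3 or more thinned Vim UMIs (535, 377 and 426 cells), Zeb1 was at 92.2, 93.2 and 80.3 CPM and Zeb2 at 88.4, 83.1 and 93.5 CPM. Snai1 was at 26.0, 37.3 and 22.3 CPM. All intervals between these steps overlapped for Snai1, Zeb1 and Zeb2. Snai2 was at 47.2, 34.2 and 57.9 CPM, and only its 2-UMI (24.8 to 45.9) and 3-UMI (46.1 to 71.8) steps did not overlap. Among adhesion only cells with 1, 2 and 3 or more adhesion UMIs (2508, 2583 and 4780 cells), Snai2 was level at 86.8, 86.4 and 85.1 CPM, and Zeb1 at 5.11, 3.31 and 3.89 CPM and Zeb2 at 7.06, 9.22 and 9.42 CPM had overlapping intervals. Snai1 gave 2, 5 and 15 UMIs there, or 0.244, 0.591 and 0.988 CPM. The change in the 3 factors therefore fell between the classes, with the neither class as a whole between them. By the clusters described below, that class was made up of 2 unlike sets, so its level is not a step of its own.

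**Figure D3:**
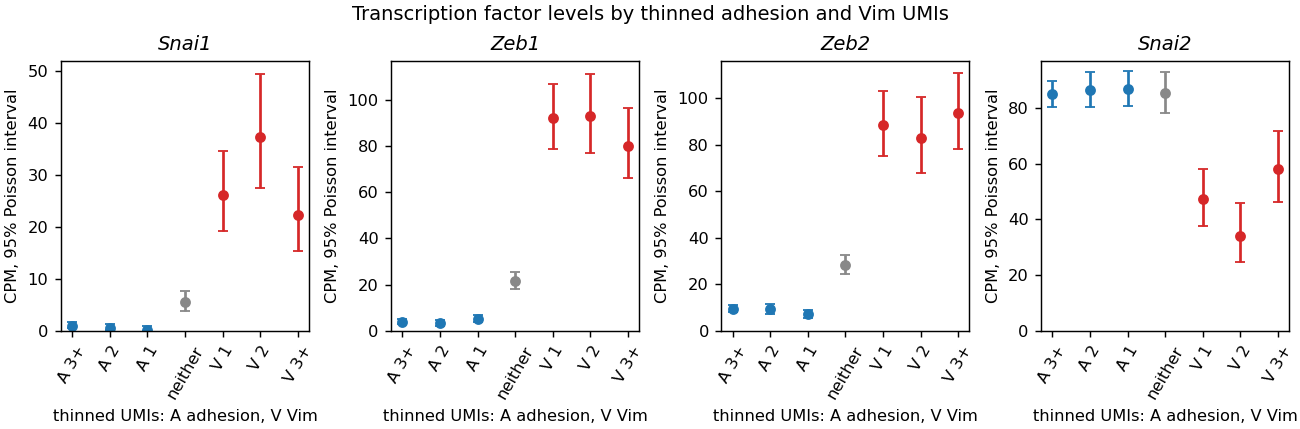
CPM (y axis, exact 95% Poisson intervals as bars) of Snai1, Zeb1, Zeb2 and Snai2 by thinned UMIs (x axis) of adhesion genes (A, in blue, from 3 or more to 1), in cells with neither (grey) and by thinned Vim UMIs (V, in red, from 1 to 3 or more). Snai1, Zeb1 and Zeb2 are low across the blue steps, between in grey, which pools unlike sets of cells, and high across the red steps. Snai2 is level across blue and grey and lower in red.

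Single Vim only cells seldom showed more than 1 of these factors at their own depth. Of the 1338 cells, 632 (47.2%, 44.5 to 49.9) held a UMI of Snai1, Zeb1 or Zeb2 and 152 held at least 2 of them, against 391 (3.96%, 3.58 to 4.36) and 10 of the 9871 adhesion only cells. Zeb1 was seen in 340 of the Vim only cells, Zeb2 in 338 and both in 106. Snai1 was seen in 116, 32 of them with Zeb1 and 34 with Zeb2. At a median of 3323 UMIs per cell the absence of a UMI does not show absence of the transcript.

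Clusters of cells built without these 9 genes and without the pathway genes gave 1 cluster of 1958 cells (13.1%, 12.6 to 13.7) that carried nearly all Vim. The 10 clusters are numbered by size, and this one is cluster 4, led by Grem1, a BMP antagonist, Ccn5, Cacna1c, Adam19 and the fibrillar collagen gene Col5a1. Of 12 mesenchymal markers 5 were raised in it, but only 1 was among its 10 leading genes, so it was given no cell type name. It held 99.03% of the Vim only cells, 58.1% of the cells with both, 23.4% of those with neither and 0.547% of the adhesion only cells. Among the others only cluster 3 was named, as cycling-like, led by Ccna2, Nusap1, Ube2c, Cdc20 and Pclaf. Cluster 1 (4673 cells) was led by Prl2c3, Prl2c2, Sprr1b, Wfdc18 and Ucp2, cluster 2 (3297 cells) by genes that include Krt7, Sorbs2, Grm8 and Ctnnd2, cluster 5 (1213 cells) by Ltf, Gabrp, Lcn2, Il33 and Aldh1a3, and cluster 6 (755 cells) by Sncg, Fst, Sema3d, Krt7 and Prl2c2. Cluster 7 (652 cells) was led by Zfpm2, Aff2, Immp2l, Grip1 and Neat1, cluster 8 (113 cells) by Ly6c1, Pate14, Krt7, 4930461G14Rik and Ntn1, cluster 9 (102 cells) by the interferon-induced genes Ifit3, Ifit3b, Rsad2, Ifit1 and Cxcl10, and cluster 10 (61 cells) by Egln3, Ero1l, Ndrg1, Bnip3 and Nlrp10.

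Vim was at 1026 CPM (1002 to 1051) in cluster 4, with a UMI in 90.6% of its cells. The next were cluster 6 at 20.2 CPM (14.5 to 27.6), cluster 9 at 9.01 (1.86 to 26.3) and cluster 3 at 8.18 (6.31 to 10.4), and clusters 8 and 10 had 0 Vim UMIs. Outside cluster 4 a Vim UMI was found in at most 4.77% of the cells of any cluster. Cluster 6 lay above clusters 1, 2, 3, 5, 7 and 8 beyond counting error and overlapped clusters 9 and 10. Epcam was at 79.7 CPM (73.1 to 86.7) in cluster 4, with a UMI in 11.3% of cells, and at 215 (185 to 249) in cluster 7. The other 8 clusters ran from 1169 (1122 to 1218) in cluster 6 to 2178 (2039 to 2324) in cluster 8, which lay above all the rest. Cdh1 was at 23.9 CPM (20.4 to 27.9) in cluster 4 and at 242 (210 to 278) to 362 (343 to 382) in the other 9. Cluster 7 was thus low in Epcam while its Cdh1 overlapped that of cluster 3, and cluster 4 was low in both. In thinned cells, a Vim UMI was found in 0 to 3.17% of the cells of the clusters other than cluster 4, and an Epcam or a Cdh1 UMI in 6.24% and 2.91% of cluster 4. Cluster 7 also had a median of 1186 UMIs per cell and 10.4% mitochondrial UMIs, against a median of 2955 UMIs over all kept cells, and the part of these in its low Epcam was not tested.

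Snai1 was nearly restricted to cluster 4, with 172 of its 196 UMIs there and 25.4 CPM (21.8 to 29.5). In the other clusters it ran from 0 to 3.002 CPM (0.0760 to 16.7 in cluster 9, from 1 UMI), and in clusters 1, 2, 3 and 5 from 0.503 to 0.822 CPM. Zeb1 was at 83.8 CPM (77.1 to 91.0) in cluster 4, 22.5 (13.5 to 35.1) in cluster 7, 9.49 (2.59 to 24.3) in cluster 8 and 1.31 to 6.004 in clusters 1, 2, 3, 5, 6 and 9, with 0 UMIs in cluster 10. Zeb2 was at 84.7 CPM (77.9 to 91.9) in cluster 4, 47.3 (33.8 to 64.4) in cluster 7, 16.6 (6.68 to 34.2) in cluster 8 and 13.8 (10.4 to 18.1) in cluster 5. It was lowest in cluster 3 at 4.28 (2.96 to 5.98), apart from the 61 cells of cluster 10 with 0 UMIs. Both Zeb genes therefore had cluster 7, the one with a median of 1186 UMIs and 10.4% mitochondrial UMIs, next after cluster 4, and the intervals of cluster 7 overlapped those of cluster 8 for each of them and, for Zeb1, those of clusters 9 and 10. The cells of cluster 7 held 19 Zeb1 and 40 Zeb2 UMIs in all and 0 Snai1 UMIs, which allows up to 3.55 CPM of Snai1 (3 UMIs), and the part of its depth and mitochondrial share in these levels was not tested.

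As a description, set against all other cells together, cluster 4 held Snai1 at 41.0-fold (26.6 to 65.7), Zeb1 at 21.9-fold (18.2 to 26.4) and Zeb2 at 9.28-fold (8.11 to 10.6) their level. Of 9111 genes at 10 CPM or more in this comparison, 10.3% were higher in the cluster by the same rule and 10.2% lower. Epcam was 15.8-fold (14.5 to 17.3) and Cdh1 13.1-fold (11.2 to 15.4) lower in it. These 2 ratios, in cluster 4 over all other cells 0.0632 for Epcam and 0.0762 for Cdh1, came to 0.0202 and 0.0269 when the cells in the top 10% of doublet scores were left out before clustering.

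Snai2 and Twist1 followed other clusters. Snai2 was highest in cluster 6 at 151 CPM (134 to 169), then 108 (57.5 to 185) in cluster 10, 106 (99.1 to 114) in cluster 2, 93.2 (88.5 to 98.1) in cluster 1, 83.0 (76.8 to 89.6) in cluster 3 and 75.1 (48.6 to 111) in cluster 9. Cluster 10 overlapped its neighbours in this order, and cluster 6 lay above clusters 1, 2, 3 and 9 beyond counting error. It was at 48.2 (43.1 to 53.7) in cluster 4, 30.7 (20.1 to 45.1) in cluster 7, 27.9 (22.9 to 33.8) in cluster 5 and 4.75 (0.575 to 17.1) in cluster 8. The Slug gene was thus lower in clusters 5 and 8 than in cluster 4. Twist1 was at 8.49 CPM (6.51 to 10.9) in cluster 2, which held 62 of the 91 UMIs. It was at 1.48 CPM (0.709 to 2.72) in cluster 4 and at 0.440 to 1.13 in clusters 1, 3 and 5, all below cluster 2 beyond counting error. Twist1 had 0 UMIs in clusters 6 to 10, which allows up to 1.52 CPM in cluster 6 and 3.55 CPM in cluster 7. The limits were 7.12, 9.01 and 24.9 CPM in clusters 8, 9 and 10, so these small clusters cannot be told apart from cluster 2. Cluster 2 had Epcam at 1508 CPM (1480 to 1537), Cdh1 at 360 (346 to 374) and Vim at 3.29 (2.11 to 4.89), so its Twist1 lay in cells with adhesion genes and little Vim. Cluster 2 had a median of 1967 UMIs per cell, and over cells with at least 1000 genes and 2000 UMIs Twist1 came to 1.41 CPM in place of 2.0025.

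**Figure D4:**
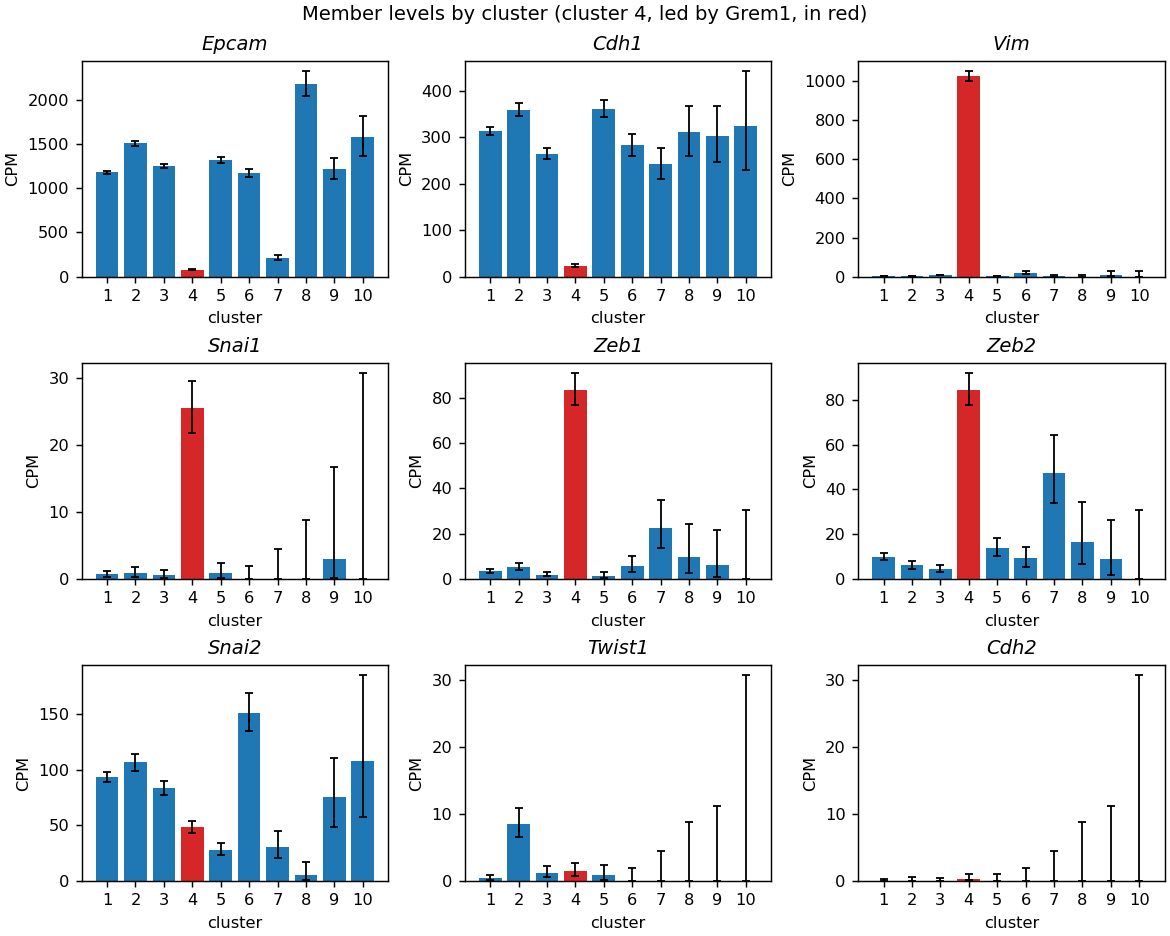
CPM (y axes, linear from 0) of each of the 9 genes in clusters 1 to 10 (x axes), with exact 95% Poisson intervals as error bars and cluster 4 in red; the clusters were made without these genes. Cluster 4 has the tallest bars of Vim, Snai1, Zeb1 and Zeb2 and the shortest of Epcam and Cdh1, while Snai2 peaks in cluster 6 and Twist1 in cluster 2.

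Cells with neither adhesion nor Vim UMI differed by cluster. The 444 such cells inside it had Vim at 441 CPM (408 to 475) at full depth, Zeb1 at 76.3 (63.1 to 91.3), Zeb2 at 85.9 (72.0 to 102) and Snai1 at 21.3 (14.7 to 29.9). The 1456 outside it had Vim at 2.09 CPM (1.00 to 3.84), Zeb1 at 3.97 (2.39 to 6.20), Zeb2 at 9.61 (7.04 to 12.8) and Snai1 at 0.418 (0.0506 to 1.51), with Epcam at 491 (471 to 511). The middling levels in the class as a whole are the sum of these 2 unlike sets. Snai2 was at 52.3 CPM (41.6 to 65.1) inside and 96.1 (87.5 to 105) outside.

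The cells with both divided in the same way. The 100 in cluster 4 had Zeb1 at 48.1 CPM (29.4 to 74.4), Zeb2 at 67.4 (44.8 to 97.4), Vim at 852 (766 to 946) and Epcam at 554 (484 to 630). The 72 in other clusters had 0 Zeb1 UMIs (up to 13.1 CPM at 3 UMIs), Zeb2 at 8.72 CPM (1.06 to 31.5), Vim at 410 (331 to 501) and Epcam at 1208 (1070 to 1358). Col1a1, a fibrillar collagen gene, was at 212 CPM (170 to 261) in the first set and 8.72 (1.06 to 31.5) in the second, and the basal keratin gene Krt5 at 262 (215 to 316) and 745 (638 to 866). Unlike the Zeb genes, Vim and Epcam, these genes were not held out of the clustering that split the sets. Their difference between the sets is therefore a description only. In Vim only cells of cluster 4 Krt5 was at 16.4 CPM (12.8 to 20.5), below its level in the 100 cells. Among all thinned cells with both, a Krt5 UMI was found in 40.7%, between 3.21% of Vim only and 60.3% of adhesion only cells. A Col1a1 UMI was found in 18.02% of them, between 0.527% of adhesion only and 32.2% of Vim only cells. The 100 cells in cluster 4 had a median total of 4239 UMIs and a median doublet score of 0.206, against 3130.5 UMIs and 0.0871 in the 72. Cells with both are a class cut by counts, and whether they form a cell type was not tested. Over all cells with both, the median was 4 thinned UMIs of the 8 basal markers and 0 of the 12 mesenchymal markers. It was 6 and 0 in adhesion only and 0 and 1 in Vim only cells. The mean of the mesenchymal markers was 0.477 thinned UMIs in cells with both, 0.0992 in adhesion only and 1.08 in Vim only cells. The 13 Vim only cells outside cluster 4 held 0 Zeb1 and 0 Snai1 UMIs and Epcam at 563 CPM (353 to 852) at full depth.

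Fewer Vim only cells carried cell cycle transcripts. At least 2 thinned UMIs of 11 cycling markers were held by 69 of 1338 Vim only cells (5.16%, 4.03 to 6.48) and by 1722 of 9871 adhesion only cells (17.4%, 16.7 to 18.2). Zeb1 was at 86.1 CPM (55.1 to 128) in these 69 cells and at 89.4 (80.2 to 99.4) in the Vim only cells without a cycling UMI. Zeb2 was at 64.5 (38.3 to 102) and 91.5 (82.2 to 102), and Snai2 at 46.6 (24.8 to 79.7) and 45.8 (39.2 to 53.1). For these 3 genes the intervals overlapped. Snai1 was at 10.8 CPM (2.22 to 31.4), from 3 UMIs, and 31.1 (25.8 to 37.2), which also overlapped. In adhesion only cells, Zeb2 was lower in the cells with at least 2 cycling UMIs than in those without one, at 3.89 CPM (2.52 to 5.74) against 10.1 (8.87 to 11.5). Cdh1 was at 285 (272 to 298) against 355 (347 to 362). Epcam was alike within counting error, at 1370 CPM (1341 to 1399) and 1383 (1367 to 1398). In the 837 adhesion only cells with 1 cycling UMI, Zeb2 was at 8.79 CPM (5.63 to 13.1) and Cdh1 at 340 (319 to 363). Both intervals overlapped those of the cells without a cycling UMI. The Zeb2 interval also overlapped that of the cells with at least 2. Adhesion only cells with at least 2 cycling UMIs had more UMIs in all, a median of 3591 against 2992.5 in those without one.

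Other genes of the transition were read from 5 lists, 89 genes in all, between Vim only and adhesion only cells by the same rule of size. Over all 9135 genes that reached 10 CPM, the median log2 ratio of Vim only to adhesion only CPM was -0.01, and the share higher was 10.8% in each direction.

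Of 16 epithelial identity regulators 13 reached 10 CPM, and all 13 were higher in adhesion only cells, with a median log2 ratio of -4.00. Those at 10 CPM in adhesion only cells alone, Rab25, Esrp1, Trp63, St14 and Grhl2 among them, could be counted in no other direction. Rab25, a small GTPase of epithelial recycling endosomes, was at 143 CPM in adhesion only and 2.63 in Vim only cells, 54.2-fold (31.0 to 105.0). Esrp1, which directs epithelial splicing, was at 73.8 against 2.19 CPM, 33.7-fold (18.3 to 70.3), and Trp63, the basal epithelial transcription factor, at 154 against 5.26 CPM, 29.3-fold (19.7 to 45.8). St14, the membrane serine protease matriptase, was at 40.3 against 1.53 CPM, and Grhl2, a grainyhead factor that maintains epithelial genes, at 48.7 against 2.63 CPM, 18.5-fold (10.6 to 35.9). The splicing, trafficking and transcriptional regulators of the epithelial state that reached 10 CPM thus lay on the adhesion side with Epcam and Cdh1.

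Of 21 junction genes 20 reached 10 CPM, 13 were higher in adhesion only cells and 0 in Vim only cells, with a median log2 ratio of -1.82. The tight junction claudin Cldn7 was at 79.6 against 2.41 CPM, 33.0-fold (18.4 to 66.3), and Cldn4 at 547 against 23.4 CPM, 23.3-fold (19.3 to 28.5). Nectin4, an adherens junction protein, was at 18.1 CPM in adhesion only cells against 1 UMI, or 0.219 CPM, in Vim only cells, a ratio of 82.8 with a counting interval of 14.8 to 3277. With Vim only cells set to the floor of 3 UMIs, the value used for ranking, its log2 ratio of Vim only to adhesion only was -4.79. The other 7 tested junction genes, picked out after their values were seen, were Ctnna1, Ctnnb1, Ctnnd1, Pkp1, Dsg2, F11r and Tjp1. The 3 catenin genes among them, whose proteins act at cadherin junctions, had ratios of Vim only to adhesion only of 1.21, 1.12 and 1.01. Their ratios lay near 1 where Cdh1 and Epcam set the classes apart. This does not hold for every catenin gene of the list. Jup, also named after its value was seen, was 3.08-fold (2.81 to 3.37) higher in adhesion only cells.

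Mesenchymal adhesion, cytoskeleton and migration genes went with Vim: 18 of 21 reached 10 CPM, 13 were higher in Vim only cells and 0 in adhesion only cells, with a median log2 ratio of 1.88. Loxl2, a lysyl oxidase of the matrix, was at 93.1 against 2.13 CPM, 43.6-fold (33.7 to 57.2). Itgb3, an integrin subunit, was at 84.3 against 2.45 CPM, 34.4-fold (26.9 to 44.5), and Tagln, an actin-binding protein, at 582 against 18.4 CPM, 31.6-fold (28.9 to 34.6). Acta2, smooth muscle actin, was at 5577 against 269 CPM, 20.7-fold (20.2 to 21.3), and Vcan, a matrix proteoglycan, at 21.2 against 1.04 CPM, 20.5-fold (13.7 to 31.4). Cdh11, a mesenchymal cadherin looked up after the values were seen because Cdh2 was nearly absent, was at 2.63 CPM from 12 UMIs in Vim only cells and 0.157 CPM from 5 UMIs in adhesion only cells, under the 10 CPM needed.

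Among 19 other transcription factors linked to the transition, 14 reached 10 CPM, 7 were higher in Vim only cells and 2 in adhesion only cells, with a median log2 ratio of 0.91. The 2 of 14 are near the 10.8% of all tested genes. Hmga2, an architectural chromatin factor, was at 1025 against 34.4 CPM, 29.8-fold (27.9 to 31.8), and Lef1, a Wnt pathway factor, at 35.3 against 1.95 CPM, 18.1-fold (13.4 to 24.7). The 2 that were higher in adhesion only cells were Sox9, at 381 against 95.5 CPM, and Foxc1, at 11.02 against 4.38 CPM, and both are named after their values were seen. So is Twist2, the paralogue of Twist1, which was at 39.0 CPM in Vim only and 3.67 CPM in adhesion only cells, 10.6-fold (8.36 to 13.5), where Twist1 showed no such ratio. Of the 12 inputs of TGF-beta signalling, all at 10 CPM or more, 6 were higher in Vim only and 1 in adhesion only cells, the latter near the 10.8% of all tested genes, with a median log2 ratio of 0.96. The count of 6 came to 4 when each class needed 2 UMIs and to 2 at a ratio of 3. Tgfbr3, the betaglycan coreceptor, was at 28.3 against 0.188 CPM, from 129 against 6 UMIs, 150-fold (67.1 to 416). The rest of the 6 lay between 2.05-fold and 5.44-fold. The 1 higher in adhesion only cells, named after its value was seen, was the receptor gene Tgfbr1, at 50.6 against 16.0 CPM.

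**Figure D5:**
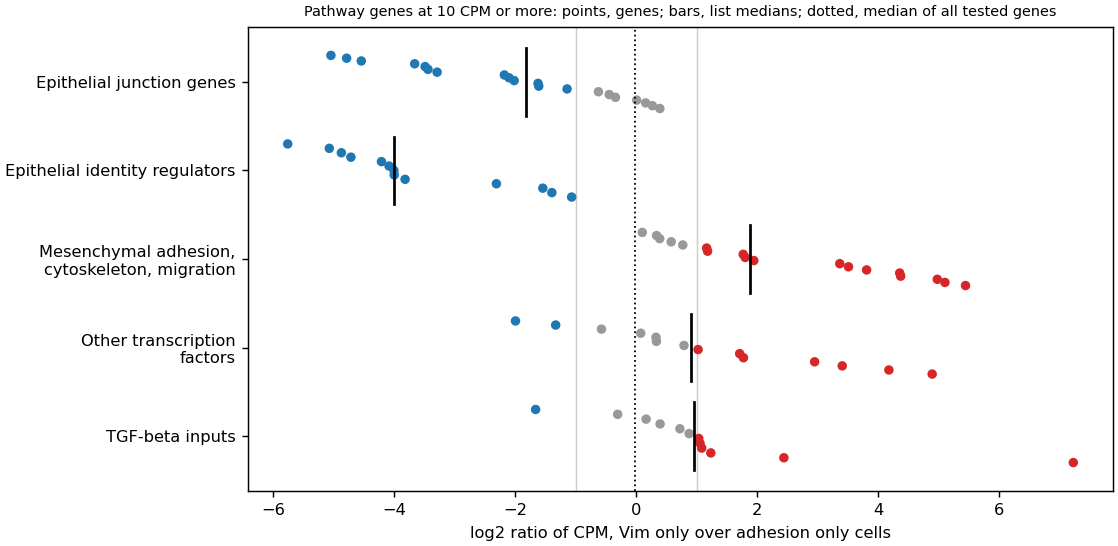
Log2 ratio of CPM in Vim only over adhesion only cells (x axis) for the genes of 5 pathway lists (rows) that reached 10 CPM; points are genes, in red where at least 2-fold higher in Vim only cells, blue where at least 2-fold higher in adhesion only cells and grey otherwise, bars are list medians and the dotted line is the median of all 9135 tested genes. The epithelial lists lie left of the dotted line with medians of -1.82 and -4.00, and the mesenchymal list lies right of it with a median of 1.88.

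Markers of other cell types that the culture could hold were read in the same classes. Summed mesenchymal markers were at 697 CPM in Vim only and 64.7 CPM in adhesion only cells, with a UMI of 10 of the 12 in Vim only cells and Lum and Thy1 at 0 UMIs. Adhesion only cells held a UMI of 9 of the 12, with Lum, Pdgfrb and Thy1 at 0 UMIs. Smooth muscle markers summed to 130 CPM against 0.879 CPM, with Des at 0 UMIs in both classes. Immune markers summed to 0.657 CPM and endothelial markers to 0.438 CPM in Vim only cells, with Ptprc, Cd74, Tyrobp, Cd3e, Cdh5, Kdr, Tek, Emcn and Cldn5 at 0 UMIs. Neural crest and glial markers summed to 2.41 CPM with Sox10 at 0, and skeletal muscle markers to 2.85 CPM with Myod1 and Myf5 at 0. Basal markers summed to 534 CPM in Vim only and 4409 CPM in adhesion only cells. GFP, an added sequence, was at 12633 CPM in Vim only and 13583 CPM in adhesion only cells, and had a UMI in every thinned Vim only cell. Whether cluster 4 descends from the same organoid cells as the rest was not tested.

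Over the 13281 thinned cells and 4522 genes detected in at least 5% of them, the genes most like Vim by Spearman correlation over cells were Fstl1 (0.61), Hmga2 (0.57), Nrep (0.56), Ccbe1 (0.55) and Piezo2 (0.54). For Epcam they were Clu (0.26), Anxa1 (0.22), Ptma (0.21), S100a14 (0.21) and Igfbp3 (0.21), and for Cdh1 they were Epcam (0.16), Clu (0.15), Anxa1 (0.14), Krt17 (0.13) and Wfdc18 (0.12). Snai2 had no value above 0.094, that of Wfdc18, followed by Col17a1, Krt14, Fxyd3 and Gpx2. Vim ran against Epcam (-0.40) and Cdh1 (-0.21). These values describe cells of 1 sample thinned to the same total, and the low ones are weak in such sparse counts. Snai1, Twist1, Zeb1, Zeb2 and Cdh2 were detected in too few cells to rank.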

How the data were processed

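Gene expression of mouse PC cells was measured by droplet single-cell RNA sequencing. The values used are the deposited UMI counts, whole numbers of molecules per gene and cell barcode, not normalized; per the file headers the matrix was written by CellRanger 8.0.1. The submitters' processing notes name mm10 and Scanpy 1.8.2 without a role; for the annotation and the use of strand the sources used here give nothing. The labels name 3 libraries (gene expression, barcode and scar), and nothing ties the matrix to 1 of them, so it was kept as a single pooled sample. Barcode and scar reads were not analysed here. No cell barcode occurred more than once. Of 32287 feature IDs, 32158 were found in GENCODE M21 on GRCm38, which supplied gene positions. RefSeq on GRCm38.p6 supplied the promoter windows.

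Cells were kept at 500 genes, 1000 UMIs and 20% mitochondrial UMIs. CPM, Poisson and Clopper-Pearson intervals and ratios with binomial intervals were computed from the counts (Python 3.11.15, scipy 1.17.1, numpy 2.4.6). All of these cover counting error only, at a 95% level. A ratio needed 10 CPM in the higher class, and a class with fewer than 3 UMIs was set to 3 UMIs for calling. Scrublet in scanpy 1.11.5 (expected rate 5%) called 1 cell a doublet, too few for a working call. No cell was removed as a doublet. Its scores were used for description and for 1 alternative. Leiden clustering (igraph 0.11.9) took 2000 variable genes, 30 components, 15 neighbours and resolution 0.6, with 98 genes, the 9 members and the 89 list genes, held out. A cluster was named when at least 3 markers of a list were raised 1.5-fold and detected in 5% of its cells, and 2 of them were among its 10 leading genes. Leading genes were ranked by ratio to the cells outside the cluster and had to be detected in 25% of its cells. The calling step was tested on simulated data.

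Named genes are the 9 members, in each direction the 8 list genes of largest called ratio, with a class under 3 UMIs set to 3, the 5 most correlated genes of each member detected in 5% of thinned cells, the 5 leading genes of each cluster, GFP, Scar and Krt5. 1 leading gene of a cluster is not reported here. Names outside this rule are said to be so or are markers of the lists. The members, lists and rules were chosen with earlier results of these data known. Alternatives changed the cell filters, thinned depth, seeds, class rule, denominator, call thresholds and clustering resolution. With 1 sample there was no replicate and no p-value.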

Additional observations from a re-analysis of the deposited data

Results flagged for a closer look

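The 3191 barcodes that the filters removed, with a median of 696 UMIs, were outside every comparison. A share of barcodes with a UMI above 0.0940%, the limit that a count of 0 allows, was found there for 6 of the 9 genes. Cdh1 had a UMI in 15.2% (95% interval 14.0 to 16.5) of these barcodes and Epcam in 14.6% (13.4 to 15.8). Snai2 had one in 3.42% (2.81 to 4.11), Zeb2 in 1.63% (1.22 to 2.13), Zeb1 in 1.41% (1.03 to 1.88) and Vim in 0.595% (0.359 to 0.928). By level, Cdh1 was at 247 CPM in the removed barcodes against 271 in kept cells, Epcam at 289 against 1086 and Vim at 13.2 against 157. Zeb1 was at 20.6 CPM against 15.7, and Zeb2 at 24.6 against 20.4. An adhesion UMI was found in 27.4% of them, and 3 barcodes held both an adhesion and a Vim UMI. Snai1, Twist1 and Cdh2 gave 2, 0 and 0 UMIs.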

How the results depend on the processing

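Of 349 values recomputed under alternatives, 301 stayed within the bounds set for no change, 48 moved and 0 were reversed. Among the member ratios followed, no called one changed direction. For the lists and for all tested genes only the number or share called in each direction was followed, not each gene. The share of thinned cells with both adhesion and Vim UMIs was 1.295% and came to 0.912% without the 10% of cells with the highest Scrublet scores, 0.590% at 1000 thinned UMIs, 2.47% at 2500, 0.129% when a class needed 2 UMIs, 1.08% with Epcam alone as the adhesion gene and 1.04% in cells of 2000 to 4000 UMIs, an alternative chosen after seeing the data. The share of Vim-positive cells with an adhesion UMI, 11.4%, came to 7.96%, 7.06%, 16.0%, 1.59%, 9.47% and 8.51% in the same order. Snai1, Zeb1 and Zeb2 were called higher in Vim only cells under all 10 alternatives, with ratios of 27.9 to 59.7, 20.3 to 24.4 and 9.02 to 10.4. The Snai2 ratio of Vim only to adhesion only was 0.453 to 0.597, and its lowest value, in cells of 2000 to 4000 UMIs, passed the factor of 2, giving 1 factor higher in adhesion only cells in place of 0. The ratio of Twist1, which was not called, was 0.833 and ran from 0.607 to 1.36, on either side of 1. Other transcription factors higher in adhesion only cells fell to 1 at a minimum of 20 CPM and at a ratio of 3, and TGF-beta inputs higher in Vim only cells to 2 at a ratio of 3, where the tighter thresholds do this by construction; the latter count was also 4 when a class needed 2 UMIs and 5 at 1000 thinned UMIs. The share with neither, 14.3%, came to 26.2% and 5.29% at 1000 and 2500 thinned UMIs. Cluster 4 held 13.1% of kept cells and 15.8% at 1000 genes and 2000 UMIs, where fewer cells are kept. All thinned shares depend on depth, and absence of a UMI at 1500 UMIs per cell does not show absence of a transcript. No paired analysis was possible because the data form 1 sample.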

Other observations

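GFP and Scar, the 2 added sequences, differed between the classes and were highest in the cells with neither. GFP was at 20708 CPM in cells with neither adhesion nor Vim UMI, against 13583 CPM in adhesion only cells and 11121 CPM in cells with both. Scar was at 21020 CPM, 12792 CPM and 10459 CPM in the same classes. Vim only cells had Scar at 11168 CPM. Leaving GFP, Scar and mitochondrial UMIs out of the denominator again gave Snai1, Zeb1 and Zeb2 as higher in Vim only cells by the same rule.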
